A study of Mus musculus with 6 samples.

Results

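Tumour-associated macrophages of mouse colorectal tumours were compared between 1 library from CCL5-/- mice and 1 library from wild-type (WT) mice, the replicate 2 pair of the CD11b-high F4/80-low sort gate. These are 2 of the 6 libraries of the series, chosen by their labelled gate, genotype and replicate number. Their depth and small share of ribosomal RNA reads also entered the choice. All groups were of the BALB/c strain, with colorectal cancer as the labelled tumour type, and the CCL5-/- cells came from mice lacking the chemokine gene Ccl5. The labels name no treatment, age or Cre driver and do not say how many mice were pooled, so a difference between genotypes and one between these libraries cannot be told apart. Read counts were scaled to the total of each library (CPM), and each gene is given as log2 of the CPM in CCL5-/- over the CPM in WT, so that -1 is 2-fold lower and 1 is 2-fold higher in CCL5-/-. Of 24391 genes in the count table, 11327 had 50 or more reads in either library and are called measured here, and 13064 did not. With 1 library per side there is no replicate error and no test. The intervals given are exact 95% binomial intervals of the ratio and cover counting error only.

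CCL5, also called RANTES, is a CC chemokine made by T cells, natural killer (NK) cells, macrophages and platelets. It draws monocytes, T cells and other leukocytes to inflamed tissue and tumours through G-protein-coupled receptors, among them CCR1 and CCR3. Macrophages in tumours arise largely from blood monocytes and respond to type I interferon and to interferon gamma from lymphocytes by inducing antiviral genes, antigen presentation genes and further chemokines. Their lipid supply is set by uptake of lipoprotein and by synthesis of sterols and fatty acids under the SREBP transcription factors.

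The gate and genotype labels were checked first. Ccl5 (chr11:83525778-83530518, GRCm38, RefSeq) had 3976 reads in WT and 82 reads in CCL5-/-, or 177 and 4.299 CPM. It was 41.3-fold lower in CCL5-/-, the direction of the label (log2 ratio -5.37, interval -5.70 to -5.05). The sources used here do not give the exons missing from the knockout allele, so the 82 reads cannot be placed inside or outside the deleted part. Itgam, which encodes CD11b, was at 245 CPM in WT and 206 CPM in CCL5-/- (log2 ratio -0.25). The F4/80 gene, Adgre1, had 70.3 CPM in WT against 50.4 CPM (log2 ratio -0.48). The macrophage genes C1qa (853 and 669.6 CPM), Csf1r (205 and 181 CPM) and Cd68 (166 and 142 CPM) were read in both libraries, all somewhat lower in CCL5-/-.

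The 2 libraries held 22411342 counts in WT and 19073767 in CCL5-/-, so 1 read is worth 0.0446 and 0.0524 CPM. The ribosomal RNA precursor Rn45s took 0.844% and 1.38% of them, against 58.4% and 50.03% in the WT and CCL5-/- libraries of replicate 1. Because of that share, ratios of the replicate 1 pair are given on counts outside Rn45s, only as a description beside the values here. The F4/80-high libraries, whose titles and genotype fields name opposite genotypes, are not used for any gene. Across 9797 genes, the log2 ratio of those libraries by their fields had a Pearson r of -0.87 with the replicate 1 ratio and of -0.13 with the replicate 2 ratio, as a description over genes, which are not independent. The replicate 2 pair shares no library with the other 4.

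The pair differed more often towards lower than towards higher values in CCL5-/-. Of the 11327 measured genes, 405 were at least 2-fold lower (3.58%) and 138 at least 2-fold higher (1.22%). The median log2 ratio was 0.06, with the 5th percentile at -0.87 and the 95th at 0.69. Most genes thus lay slightly above WT (56.2% above and 43.8% below), while the genes with large ratios lay mostly below it. Among 6233 genes with 500 or more reads in either library, 116 were 2-fold lower and 42 were 2-fold higher. At 4-fold, 25 genes were lower and 5 were higher. The interval lay wholly beyond 2-fold for 134 lower and 41 higher genes. At the read minimum itself, the 20 genes with exactly 50 reads in the better covered library ran from -2.24 to 0.38 (median -0.48), and the 29 genes just outside it, with 49 reads, from -2.06 to 1.46 (median -0.02).

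**Figure D1:**
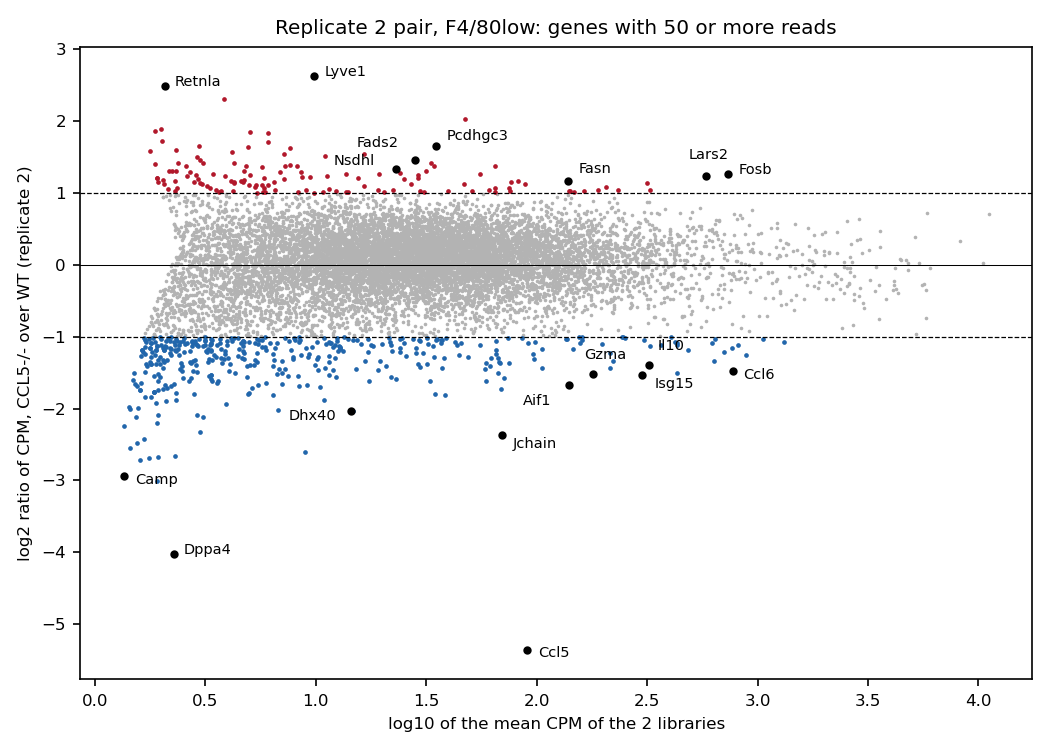
Log2 ratio of CPM, CCL5-/- over WT, of the replicate 2 pair (vertical axis) against log10 of the mean CPM of the 2 libraries (horizontal axis), 1 point per measured gene. Dashed lines mark 2-fold, with 138 genes above (red) and 405 below (blue), Ccl5 lies apart at -5.37, and named genes are in black.

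The genes with the lowest ratios were largely genes of lymphocytes, interferon and inflammation. After Ccl5, the lowest of those with 500 or more reads was Jchain, the joining chain of secreted IgM and IgA, at 117 CPM in WT and 22.6 CPM in CCL5-/- (log2 ratio -2.37, interval -2.52 to -2.22). Ifnb1, which encodes interferon beta, was at 23.7 and 5.82 CPM (-2.03, interval -2.34 to -1.73). Xcl1, a chemokine of NK and CD8 T cells that attracts cross-presenting dendritic cells, was at 59.8 and 17.0 CPM (-1.81). The lymphocyte signal chain gene Cd3g was at 32.8 and 11.1 CPM (-1.57). Both lymphocyte products and macrophage genes are thus in the group. Aif1, an actin-binding protein of macrophages also called IBA1, was at 213 and 66.9 CPM (-1.67). Ctsk, a collagen-degrading cysteine protease, was at 105 and 31.8 CPM (-1.73). The interferon-inducible DNA sensor family gave Pyhin1 (-1.79) and Ifi205 (-1.58), whose members resemble each other closely and are uncertain one by one. The host genes of miR-155 (Mir155hg, -1.61) and miR-22 (Mir22hg, -1.62), the adaptor gene Stap1 (-1.58), Isg15 (-1.53), the IL-36 gamma gene Il1f9 (-1.62) and Dhx40 complete the 15. Of these 15 genes, Ccl5, Dhx40 and Il1f9 were also 2-fold lower in the replicate 1 pair, at -3.31, -2.21 and -1.39, and Isg15 and Mir22hg were lower by less than 2-fold, both at -0.12. The other 10 were above WT there, from 0.10 for Ifnb1 to 1.79 for Ctsk.

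The genes with the highest ratios included enzymes of lipid synthesis, AP-1 subunits and cell cycle genes. Fads2, the delta-6 desaturase of polyunsaturated fatty acid synthesis, was at 14.9 CPM in WT and 41.2 CPM in CCL5-/- (log2 ratio 1.46, interval 1.28 to 1.65). Nsdhl, a sterol dehydrogenase of cholesterol synthesis, was at 13.1 and 33.0 CPM (1.34). Cad, the enzyme that starts pyrimidine synthesis, was at 32.7 and 78.6 CPM (1.27). Enzymes of biosynthesis make up only some of the 15. The AP-1 genes Fosl1 (36.1 and 93.7 CPM, 1.38) and Fosb (432 and 1039.6 CPM, 1.27) were higher. So were the cell cycle regulator Mybl2 (1.28), the mitotic gene Prr11 (1.26) and the chromatin protein gene Hmga1 (1.25). Cbr2, a carbonyl reductase found in tissue macrophages, was at 19.1 and 49.4 CPM (1.37). Tpsab1, a mast cell tryptase close in sequence to Tpsb2, was at 18.2 and 48.5 CPM (1.41). Fam83h (1.31) and Spns2, a sphingosine-1-phosphate exporter (1.20), were also among them. Pcdhgc3 had the highest ratio (1.65), but it shares its constant exons with the other gamma protocadherins, so its reads cannot be assigned to it alone. Lars2 (346 and 817 CPM, 1.24) and Mir6236 (1.20) are annotated over ribosomal-RNA-like sequence, and Rn45s itself took 0.844% and 1.38% of the counts. The part of ribosomal RNA in these 2 ratios was not tested. Of the 15, 10 were also above WT in the replicate 1 pair, and Tpsab1, Hmga1, Fam83h, Lars2 and Mir6236 were below it. Over all measured genes, 6366 lay above WT in the replicate 2 pair. Of the 11296 genes with reads in all 4 libraries, 4192 lay above it in both pairs.

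Genes induced by type I interferon were lower as a group in CCL5-/-. Of the 40 listed, all were measured, and 38 lay below WT, where 43.8% of all measured genes lay. At least 2-fold lower were 13 (3.58% of all), and the median log2 ratio was -0.78 against 0.06 for all measured genes. None was 2-fold higher. Summed over the list, WT had 4151 CPM and CCL5-/- 2511 CPM. Isg15, a ubiquitin-like modifier, was at 444 and 153 CPM (log2 ratio -1.53, interval -1.59 to -1.47). Rtp4, an interferon-induced chaperone of receptors, was at 98.6 and 34.6 CPM (-1.51). Rsad2, the antiviral enzyme viperin, was at 154 and 56.8 CPM (-1.44). The counting interval of each of these 3 genes lay wholly past 2-fold. Ifit3, an RNA-binding antiviral protein, was at 28.0 and 10.1 CPM (-1.47). Irf7, the transcription factor that amplifies interferon production, was at 273 and 171 CPM (-0.67). The exceptions were Ifitm3 at 586 and 588 CPM (0.01) and Oas1a at a log2 ratio of 0.28. The list's median was 0.11 in the replicate 1 pair, and 19 of the 40 genes lay below WT in both pairs. Over all genes, 4961 lay below WT in replicate 2, and 1906 of them did so in both pairs.

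The promoters of these genes are shown because the interferon-stimulated response element, the DNA motif bound by the factor ISGF3, can be read in them. RefSeq promoter windows (GRCm38.p6, 250 bases before to 50 after a start) matched 30 of the 40 genes. The motif was searched on both strands as GAAA, any 2 bases and GAAA again, which reads TTTC, 2 bases and TTTC on the other strand. It stood in 17 of the 30 genes, against 3.99% of the 27025 genes with a window (3.44% of the 32851 windows). Of these 17 genes, 5 were at least 2-fold lower, against 13 of all 40 in the list. The motifs of the 5 are given 5′ to 3′ in the direction of the gene. Each motif is in capitals, and all of it lies before the annotated start. In Isg15 overlapping matches form a longer run.
Isg15, chr4:156200860-156200899, minus strand: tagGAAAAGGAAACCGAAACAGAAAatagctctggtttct
Ifit3, chr19:34583392-34583431, plus strand: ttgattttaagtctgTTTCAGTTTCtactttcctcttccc
Rsad2, chr12:26456548-26456587, minus strand: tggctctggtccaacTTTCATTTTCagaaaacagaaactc
Ifit1, chr19:34640789-34640828, plus strand: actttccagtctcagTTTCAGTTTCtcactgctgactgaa
Slfn8, chr11:83020834-83020873, minus strand: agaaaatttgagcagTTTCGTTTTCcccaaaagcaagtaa
Ifit1 was at 84.6 CPM in WT and 32.8 CPM in CCL5-/- (log2 ratio -1.37), and Slfn8, of the Schlafen family, at 24.5 and 11.3 CPM (-1.12). The matched genes of the list with the motif had a median of -0.80 and those without it -0.75, a small difference. Over all 8675 measured genes with a window, the 342 with the motif had a median of -0.05 and the rest 0.07. Of the 342, 8.77% were 2-fold lower, against 3.58% of all 11327 measured genes. A match describes the letters only and was not tested as a binding site.

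Genes of the interferon gamma response were also lower. Of 30 listed, 28 were measured, 27 lay below WT and 8 were at least 2-fold lower, with a median of -0.58. Over all measured genes, 43.8% lay below WT and 3.58% were 2-fold lower. Ifng itself, made by T and NK cells, was at 14.5 CPM in WT and 5.98 CPM in CCL5-/- (log2 ratio -1.28). The guanylate-binding proteins Gbp9 (23.9 and 9.44 CPM, -1.34), Gbp8 (17.4 and 7.08 CPM, -1.29) and Gbp5 (43.8 and 20.4 CPM, -1.10), which attack vacuoles of intracellular pathogens, were lower. Gbp8 and Gbp9 are near relatives, and reads may be split between them. Serpina3g, a serpin induced in activated leukocytes, was at 91.8 and 39.0 CPM (-1.24). The member above WT was Socs1, the feedback inhibitor of the pathway, at 51.9 and 60.6 CPM (0.22). The replicate 1 pair had the other sign for this list, with a median of 0.95. Below WT in both pairs was 1 of 28 genes, against 16.9% of all genes.

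MHC class II presentation is the route by which macrophages and dendritic cells show peptides to CD4 T cells. All 14 measured genes of 17 lay below WT, with a median of -0.80 and 3 genes at least 2-fold lower. Of all measured genes, 43.8% lay below WT and 3.58% were 2-fold lower. H2-Aa, the alpha chain of I-A, was at 1118 CPM in WT and 518 CPM in CCL5-/- (log2 ratio -1.11, interval -1.14 to -1.08). H2-Ab1, its beta chain, was at 1196 and 635 CPM (-0.91). The costimulatory ligand gene Cd86 was at 203 and 89.9 CPM (-1.17). The class II genes thus shared a direction, though not a size. H2-Ea-ps, annotated as a pseudogene of the I-E alpha chain in the reference strain, was at 1253 and 522 CPM (-1.26). Cd74, the invariant chain, was at 1249 and 906 CPM (-0.46). Ciita, the master regulator of the class, was at 8.61 and 4.61 CPM (-0.90). MHC class I genes differed less, with 14 of 16 measured below WT, none past 2-fold and a median of -0.25. B2m, the class I light chain, was at 4419 and 3182 CPM (-0.47), and the nonclassical class I gene H2-T23 at 205 and 134 CPM (-0.61). The class II median was 0.51 and the class I median 0.47 in the replicate 1 pair.

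Chemokine ligands other than Ccl5 were lower in CCL5-/- for 22 of 26 measured genes of 29 (43.8% over all measured genes). Of the 26, 9 were at least 2-fold lower (3.58% over all) and 1 at least 2-fold higher (1.22%), with a median of -0.53. Ccl6, a CC chemokine of myeloid cells that binds CCR1, was at 1134 CPM in WT and 409 CPM in CCL5-/- (log2 ratio -1.47, interval -1.51 to -1.43). Ccl9, another CCR1 ligand, was at 906 and 359 CPM (-1.34). Ccl4, also called MIP-1 beta, was at 1060.4 and 477 CPM (-1.15). These CC chemokine genes lie in the same gene cluster as Ccl5. Cxcl9 was at 335 and 166 CPM (-1.01), and Cxcl16 at 327 and 163 CPM (-1.003). The monocyte attractant Ccl7 was at 1427 and 1108 CPM (-0.37). The gene above 2-fold was Ccl20, with 26 and 51 reads (1.20, interval 0.50 to 1.95). The list's median was 0.22 in the replicate 1 pair. Of 24 genes, 7 lay below WT in both pairs. Over all genes, 4961 lay below WT in replicate 2, and 1906 of them did so in both pairs. Cxcl9 went far the other way in the replicate 1 pair, at a log2 ratio of 3.997. So did Ccl7 (1.54), Ccl2 (1.40), Ccl12 (1.60) and Ccl8 (2.49), while Ccl6, Ccl9 and Ccl4 were at -0.099, -0.00371 and -0.12 there.

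Chemokine receptors were lower for 10 of 12 measured genes of 23, with 4 at least 2-fold lower and a median of -0.79. The shares over all measured genes were 43.8% lower and 3.58% at least 2-fold lower. Among the receptors that bind CCL5, Ccr1 was at 173 CPM in WT and 123 CPM in CCL5-/- (log2 ratio -0.49, interval -0.56 to -0.42), and Ccr3 had 35 and 18 reads, under the minimum. Ccr2, the receptor that brings monocytes out of the bone marrow, was at 133 and 63.2 CPM (-1.07). Cx3cr1, the fractalkine receptor of patrolling monocytes, was at 16.7 and 8.23 CPM (-1.02). Cxcr4, the CXCL12 receptor, was at 43.0 and 25.4 CPM (-0.76). The receptors of monocytes thus stood below the CCL5 receptor Ccr1 in their ratios. Ccr1, Ccr2, Cx3cr1 and Cxcr4 were at -0.12, 0.44, -0.67 and -0.53 in the replicate 1 pair.

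Other lists of macrophage immune genes also had medians below 0. Over all measured genes, 43.8% lay below WT and 3.58% were 2-fold lower. Of 29 measured inflammatory cytokine and receptor genes, 22 lay below WT and 4 were 2-fold lower (median -0.41). Il10, an anti-inflammatory cytokine, was at 467 CPM in WT and 178 CPM in CCL5-/- (log2 ratio -1.39). Il1a was at 858 and 420.3 CPM (-1.03), Il1b at 4437 and 2638 CPM (-0.75), and Tnf at 429 and 259.7 CPM (-0.72). The 7 genes above WT included the growth factors Csf1 at 281 and 482 CPM (0.78) and Csf2 (0.48), and the inhibitory cytokine Tgfb1 at 208 and 247 CPM (0.25). Of 16 measured immune checkpoint genes, 11 lay below WT and 4 were 2-fold lower (median -0.36). Cd274, which encodes PD-L1, was at 213 and 100.2 CPM (-1.09). Toll-like receptors gave 15 of 19 below WT (median -0.38), with Tlr7, the sensor of single-stranded RNA, at 33.6 and 14.6 CPM (-1.21). Tlr13, the sensor of bacterial ribosomal RNA, was at 42.2 and 16.1 CPM (-1.38). C-type lectins, which bind microbial glycans and dead cells, gave 16 of 19 below WT, 6 of them 2-fold lower (median -0.62). Clec4d was at 499.6 and 231 CPM (-1.11), and Clec7a, the beta-glucan receptor dectin-1, at 326 and 162 CPM (-1.01). Complement and Fc receptor genes had a median of -0.41 (16 of 19 below WT), and C3 was at 171 and 94.9 CPM (-0.85). Lysosomal proteases had a median of -0.27 (17 of 20 below WT), with Ctsh at 135 and 57.4 CPM (-1.24). The medians of these 6 lists in the replicate 1 pair ran from 0.04 to 0.29.

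**Figure D2:**
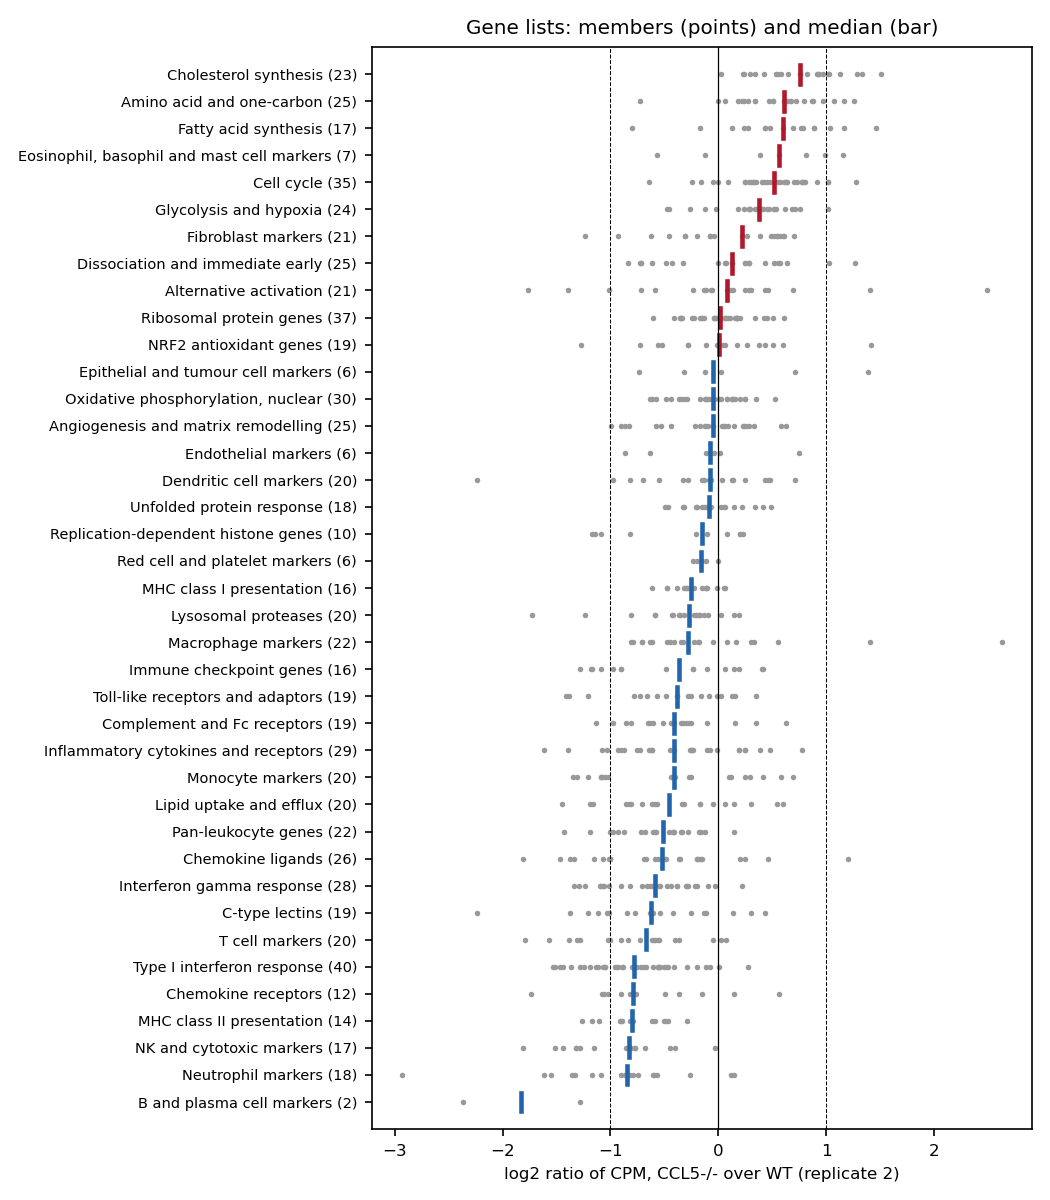
Log2 ratio of CPM, CCL5-/- over WT, of the replicate 2 pair (horizontal axis) for the measured members of each gene list (points, their number in parentheses) with the list median (bar). Dashed lines mark 2-fold; cholesterol synthesis has the highest median (0.76) and B and plasma cell markers, with 2 measured genes, the lowest (-1.83).

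Markers of NK, T and B cells were lower in CCL5-/- too, beside the immune lists above. In sorted bulk cells, fewer cells of a type and less RNA per cell cannot be told apart. Among all measured genes, 43.8% lay below WT and 3.58% were 2-fold lower. NK and cytotoxic markers had all 17 measured genes of 20 below WT, 7 of them 2-fold lower, with a median of -0.82 and summed CPM of 757 in WT and 344 in CCL5-/-. Klra8 and Klra4 were listed at 0 in both. Gzma, a granule protease of cytotoxic cells, was at 266 and 93.1 CPM (log2 ratio -1.52), Klrk1, which encodes the receptor NKG2D, at 54.6 and 20.1 CPM (-1.44), and Gzmb at 160.1 and 88.5 CPM (-0.86). T cell markers had 18 of 20 measured genes of 25 below WT, 7 of them 2-fold lower, with a median of -0.67 and sums of 203 and 114 CPM. Lck, a kinase of T cell receptor signalling, was at 23.5 and 14.3 CPM (-0.72). B and plasma cell markers had 2 measured genes of 18, Jchain and Mzb1 (2.54 and 1.05 CPM, -1.28), with sums of 126 and 28.0 CPM, and Cr2 was listed at 0 in both. The part of lymphocyte RNA in the other lists was not tested. The replicate 1 pair had medians of 0.81 for NK, 0.42 for T and 0.12 for B and plasma cell markers.

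A pan-leukocyte list of 22 genes was added after the data were seen. It holds genes of leukocytes in general and some mainly of myeloid cells, such as Tyrobp and Cybb. Of the 22, 21 lay below WT and 3 were at least 2-fold lower (43.8% and 3.58% of all measured genes). The median was -0.51, with sums of 6661 CPM in WT and 4284 CPM in CCL5-/-. Ptprc, which encodes the pan-leukocyte protein CD45, was at 142 and 71.8 CPM (log2 ratio -0.98). Tyrobp, the adaptor DAP12 of myeloid and NK receptors, was at 673 and 296 CPM (-1.19), and Cd52 at 315 and 117 CPM (-1.43). Because the list mixes general and myeloid genes, it does not separate leukocyte genes in general from those of single lineages. Their part in the immune lists was not tested. The list's median in the replicate 1 pair was -0.04.

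Markers of stromal and epithelial cells, red cells and platelets, and granulocytes other than neutrophils gave mixed values. Among all measured genes, 56.2% lay above WT. Fibroblast markers were measured for 21 of 23 genes, with 11 above WT, a median of 0.22 and sums of 1920.5 CPM in WT and 2364 CPM in CCL5-/-. Their members disagreed in sign, and the median was -0.040 at a minimum of 20 reads. Col1a2, a chain of type I collagen, was at 593 and 967 CPM (log2 ratio 0.71), whereas the proteoglycan gene Dcn was at 300.1 and 128 CPM (-1.23). Epithelial and tumour cell markers had 6 measured genes of 20, sums of 149.5 and 158 CPM, and a median of -0.05, which was 0.71 at a minimum of 200 reads. Of these 6 genes, 3 lay below WT and 3 above it. The keratin Krt8 was at 4.24 and 11.1 CPM (1.39), and Krt18 had 359 and 500 reads (0.71). Krt20, at 115 and 106 CPM (-0.12), made up most of the sums. Epithelial genes under the minimum went both ways. Krt7, Vil1, Cldn7 and Cdx2 had 15, 9, 4 and 8 reads in WT and 0 in CCL5-/-. Krt19, Cldn4, Epcam and Elf3 had 7, 7, 3 and 4 reads in WT and 42, 40, 15 and 14 in CCL5-/-. Endothelial markers had 6 measured genes of 18 and sums of 50.7 and 46.6 CPM. Red cell and platelet markers had 6 of 16, sums of 271 and 245 CPM, and the globin genes Hba-a1, Hba-a2, Hbb-bs and Hbb-bt listed at 0 in both. Eosinophil, basophil and mast cell markers had 7 measured genes of 18, 5 of them above WT, with a median of 0.57 (-0.12 at a minimum of 1 read with 1 read added), sums of 124 and 136 CPM, and Il5ra listed at 0 in both. The mast cell proteases Cma1 (8.39 and 16.6 CPM, 0.99), Tpsb2 (13.7 and 24.0 CPM, 0.81) and Mcpt4 (12.2 and 18.0 CPM, 0.57) were higher in CCL5-/-. Tpsb2 and Mcpt4 were at -1.27 and -0.25 in the replicate 1 pair.

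Within the myeloid lineage, neutrophil markers lay mostly below WT, and monocyte and macrophage markers were divided. For comparison, 43.8% of all measured genes lay below WT and 3.58% were 2-fold lower. Neutrophil markers had 16 of 18 measured genes of 32 below WT, 7 of them 2-fold lower, with a median of -0.84 and sums of 1012 CPM in WT and 615 CPM in CCL5-/-. S100a9, a subunit of the calcium-binding protein calprotectin, was at 497 and 281 CPM (log2 ratio -0.82), S100a8, the other subunit, at 138 and 115 CPM (-0.26), and Retnlg at 16.5 and 6.45 CPM (-1.36). These genes were lower in the replicate 1 pair as well, at -2.24, -2.57 and -2.83. Of the 18 genes, 16 lay below WT in both pairs, as did 1906 of the 4961 genes below WT in replicate 2. Monocyte markers had 13 of 20 below WT and 8 at least 2-fold lower (median -0.41). Ly6c2, the surface marker of classical monocytes, was at 96.7 and 38.0 CPM (-1.35), Ms4a4c at 138 and 55.6 CPM (-1.31), and Clec4e, the receptor Mincle, at 982 and 424 CPM (-1.21). Other monocyte genes went the other way, among them the matrix protein Fn1 at 981 and 1465 CPM (0.58) and the transglutaminase F13a1 at 48.1 and 78.1 CPM (0.70).

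Macrophage markers had 15 of 22 measured genes of 25 below WT (43.8% of all measured genes), with a median of -0.28. No member was 2-fold lower and 2 were 2-fold higher (3.58% and 1.22% of all), and Marco was listed at 0 in both. Msr1, a scavenger receptor, was at 408 CPM in WT and 233 CPM in CCL5-/- (log2 ratio -0.81), Apoe, the lipid carrier, at 1373 and 841 CPM (-0.71), and Timd4, a receptor for dying cells, at 13.2 and 8.07 CPM (-0.71). The higher members were Lyve1, the hyaluronan receptor of perivascular macrophages, with 61 and 322 reads (2.63, interval 2.23 to 3.05), and the haemoglobin scavenger receptor gene Cd163, with 38 and 86 reads (1.41, interval 0.84 to 2.00). Further genes of tissue-resident macrophages, looked up after these values were seen, were Folr2 at 38.7 and 48.5 CPM (0.33), Mrc1 at 121 and 150.2 CPM (0.31) and Vsig4, under the minimum, with 7 and 40 reads. These 3 lay above WT, whereas Timd4, also a marker of resident macrophages, and Mertk (108 and 53 reads, -0.79) lay below it, and Cd5l had 4 and 1 reads. In the replicate 1 pair Lyve1 was at 0.74 and Cd163 at -0.54. Retnla, a secreted product of alternatively activated macrophages, had 14 and 67 reads (2.49) but 14 and 5 reads in the replicate 1 pair (-1.93), and the alternative activation list as a whole was spread evenly, with 10 genes below and 11 above WT and a median of 0.08. Dendritic cell markers had a median of -0.08, with Itgax, which encodes CD11c, at 28.4 and 14.5 CPM (-0.97), and Fscn1, which marks mature dendritic cells, at 126 and 207 CPM (0.71).

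**Figure D3:**
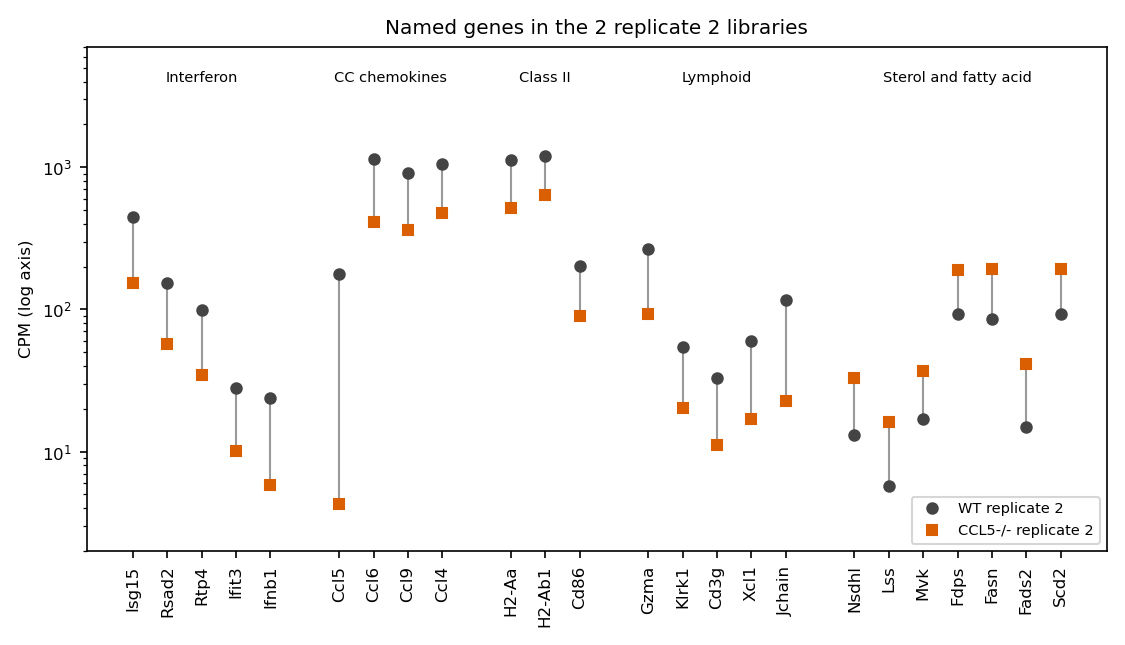
CPM of named genes in WT (circles) and CCL5-/- (squares) of replicate 2, on a log axis, 1 library each, with no error bars because there is 1 library per side. The interferon, chemokine, class II and lymphoid genes lie lower in CCL5-/-, Isg15 for example at 153 against 444 CPM, and the sterol and fatty acid genes lie higher, Fdps at 188 against 92.0 CPM.

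Cholesterol synthesis was the pathway with the highest median, 0.76, and all 23 measured genes of 25 lay above WT, where 56.2% of all genes did. At least 2-fold higher were 6 of them (1.22% of all measured genes), and none was 2-fold lower. The lowest member was Tm7sf2, with 186 and 161 reads (0.024). That ratio is smaller than the shift of all ratios under TMM factors (-0.026), so the count of 23 holds for this scaling. Lss, which closes the sterol ring system, had 128 reads in WT and 310 in CCL5-/-, or 5.71 and 16.3 CPM (log2 ratio 1.51, interval 1.21 to 1.82). Mvk, the mevalonate kinase, was at 16.9 and 36.9 CPM (1.13), and Fdps, which makes farnesyl diphosphate, at 92.0 and 188 CPM (1.03). The measured enzymes of the chain from mevalonate to cholesterol were thus all on the same side under this scaling. Srebf2, the factor that drives the pathway, was at 153 and 294 CPM (0.94). Hmgcs1 was listed at 0 in both libraries. The replicate 1 pair gave a median of 0.85 for this list, with 23 of 23 genes above WT in both pairs, a class that held 37.1% of all genes.

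The promoters of the most raised sterol genes are shown for the CCAAT box, the site of NF-Y, which works beside SREBP at sterol genes. The promoter windows matched 16 of the 23 genes. CCAAT, read as ATTGG on the other strand, stood in 15 of the 16, against 41.1% of all genes with a window (37.4% of windows). For the 5 with the highest ratios and a box before the annotated start, the box is given in capitals, 5′ to 3′ in the direction of the gene.
Lss, chr10:76531528-76531562, plus strand: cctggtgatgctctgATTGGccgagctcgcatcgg
Nsdhl, chrX:72918486-72918520, plus strand: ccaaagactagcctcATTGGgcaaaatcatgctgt
Hsd17b7, chr1:169969206-169969232, minus strand: ccgggccgagccttgATTGGtcgaggt
Mvk, chr5:114444240-114444268, plus strand: agctccagctctctgATTGGcctcaggaa
Cyp51, chr5:4104707-4104741, minus strand: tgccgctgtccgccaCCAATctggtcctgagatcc
Hsd17b7, a 3-ketosteroid reductase of the pathway, had 90 and 187 reads (log2 ratio 1.29), and Cyp51, the lanosterol demethylase, was at 97.8 and 198 CPM (1.02). Of the 5 motifs searched in all, a sterol regulatory element written as TCACNCCAC stood in 0 of the 16 windows (1.44% of all genes) and a longer form of it also in 0. The E-box CACGTG stood in 4 of the 16 (8.09% of all genes). The absence of these letters says only that they are not in these windows. CCAAT was also in 11 of 14 matched fatty acid genes and 20 of 28 matched cell cycle genes.

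Fatty acid synthesis lay on the same side, with 15 of 17 measured genes of 18 above WT and a median of 0.60. Of the 17, 3 were 2-fold higher. Over all measured genes these shares were 56.2% and 1.22%. Fasn, the fatty acid synthase, was at 85.5 CPM in WT and 192 CPM in CCL5-/- (log2 ratio 1.17, interval 1.09 to 1.25), and Scd2, a stearoyl-CoA desaturase, at 93.3 and 191 CPM (1.03). The exceptions were Acsl1, which activates fatty acids and is induced in inflamed macrophages, at 21.95 and 12.6 CPM (-0.80), and Elovl5 (-0.17). The replicate 1 median was 0.65. Above WT in both pairs were 15 of the 17 genes, and 4192 of the 6366 genes above WT in replicate 2. Genes of lipid uptake and efflux went the other way, with 15 of 20 below WT (43.8% of all measured genes) and a median of -0.45. Cd36, the scavenger receptor for oxidised lipoprotein, was at 90.8 and 39.8 CPM (-1.19), Lpl, the lipoprotein lipase, at 10.6 and 3.88 CPM (-1.45), and Fabp4 at 17.8 and 7.97 CPM (-1.16). These 3 genes lay above WT in the replicate 1 pair, at 0.80, 0.24 and 0.03.

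Genes of amino acid and one-carbon metabolism had 24 of 25 measured genes of 28 above WT and a median of 0.61. Of the 25, 3 were 2-fold higher. Among all measured genes, 56.2% lay above WT and 1.22% were 2-fold higher. Trib3, a pseudokinase induced by the factor ATF4, was at 50.6 CPM in WT and 114 CPM in CCL5-/- (log2 ratio 1.17), and Slc7a5, an importer of large neutral amino acids, at 93.7 and 184 CPM (0.97). Shmt2, the mitochondrial enzyme that feeds one-carbon units, was at 223 and 409 CPM (0.88). The gene below WT was Slc7a11, the cystine importer, at 70.5 and 42.7 CPM (-0.72). The replicate 1 median was 0.23. Above WT in both pairs were 22 of the 25 genes, and 4192 of the 6366 genes above WT in replicate 2. Glycolysis and hypoxia genes had 19 of 24 above WT and a median of 0.38, with the hypoxia-induced genes Ndrg1 at 704 and 1189.8 CPM (0.76) and Car9 at 7.14 and 14.5 CPM (1.02). Eno1 was listed at 0 in both. Nuclear genes of oxidative phosphorylation differed little (median -0.05), as did genes of the unfolded protein response (median -0.09), angiogenesis and matrix remodelling (median -0.05) and the NRF2 antioxidant list (median 0.01).

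Cell cycle genes had 30 of 35 above WT, 3 of them 2-fold higher, and a median of 0.52. Among all measured genes, 56.2% lay above WT and 1.22% were 2-fold higher. Above WT in both pairs were 26 of the 35, and 4192 of the 6366 genes above WT in replicate 2. E2f1, the factor that opens S phase, was at 42.7 CPM in WT and 86.4 CPM in CCL5-/- (log2 ratio 1.02), Ccne1, its cyclin target, at 11.4 and 21.4 CPM (0.91), and Foxm1, a factor of mitotic genes, at 57.6 and 100.3 CPM (0.80). The replication genes Pcna (461 and 577 CPM, 0.33) and Mcm2 (70.9 and 122.0 CPM, 0.78) were above WT as well. The 5 genes below it included Mki67 at 181 and 115 CPM (-0.65), Birc5 (-0.25) and Top2a at 161 and 156 CPM (-0.05). Which cells in the sort carried these transcripts was not tested.

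Signs of handling were mixed. Dissociation and immediate early genes had 16 of 25 above WT (56.2% of all measured genes) and a median of 0.13. Fosb and Egr3 were 2-fold higher, Egr3 at 26.1 CPM in WT and 53.1 CPM in CCL5-/- (log2 ratio 1.03). The heat shock genes Hsp90aa1 (3485 and 1951 CPM, -0.84) and Hspa1a (565 and 342 CPM, -0.73) were lower. Ribosomal protein genes had a median of 0.02 and turned slightly negative under 3 other scalings. Their members ranged from -0.60 for Rpl23 to 0.61 for Rplp0. Replication-dependent histone genes, whose RNA lacks a poly(A) tail, had 10 measured of 40 and a median of -0.15, against -0.60 in the replicate 1 pair.

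Genes with fewer reads gave the largest single ratios and the widest intervals. Dppa4, a gene of pluripotent cells, had 96 reads in WT and 5 in CCL5-/- (log2 ratio -4.03, interval -5.69 to -2.76). Camp, the neutrophil granule peptide cathelicidin, had 54 and 6 reads (-2.94, interval -4.45 to -1.72) and was lower in the replicate 1 pair too, at 63 and 4 reads. Bach2, a repressor of lymphocyte differentiation, had 62 and 8 reads (-2.72). The low-read group thus held genes of germ cells, neutrophils and lymphocytes. Dazl, a germ cell RNA-binding protein, had 52 reads in WT and 0 in CCL5-/-, at least 14.8-fold lower against a floor of 3 reads in that library. Snord89, a small nucleolar RNA, had 68 and 9 reads (-2.68). Cnfn, a gene of cornified epithelium, had 29 and 122 reads (2.31), and Cubn, an endocytic receptor of kidney and gut, 19 and 60 reads (1.89). Dazl had 0 reads in both libraries of replicate 1.

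Around Ccl5 itself, measured genes were 2-fold lower more often than in the whole table. Of the 94 measured genes within 5 Mb of Ccl5, that gene left out, 14 were 2-fold lower (14.9%, against 3.58% of all) and 3 were 2-fold higher, with a median of -0.12. The chemokine genes Ccl9, Ccl6, Ccl3 (543 and 271 CPM, log2 ratio -1.001) and Ccl4 start 0.047, 0.062, 0.122 and 0.123 Mb from the start of Ccl5. On its other side the Schlafen genes Slfn8 and Slfn4 (62.6 and 26.4 CPM, -1.25), which interferon induces, start at -0.524 and -0.351 Mb. Without genes named Ccl or Slfn, 6 of 77 were 2-fold lower. Among these was Dhx40, an RNA helicase gene 3.24 Mb from Ccl5, at 23.3 CPM in WT and 5.66 CPM in CCL5-/- (-2.04, interval -2.35 to -1.74). Dhx40 was lower in the replicate 1 pair by about as much, with 218 and 64 reads (-2.21). Beyond it, Ypel2 had 55 and 23 reads (-1.03).

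**Figure D4:**
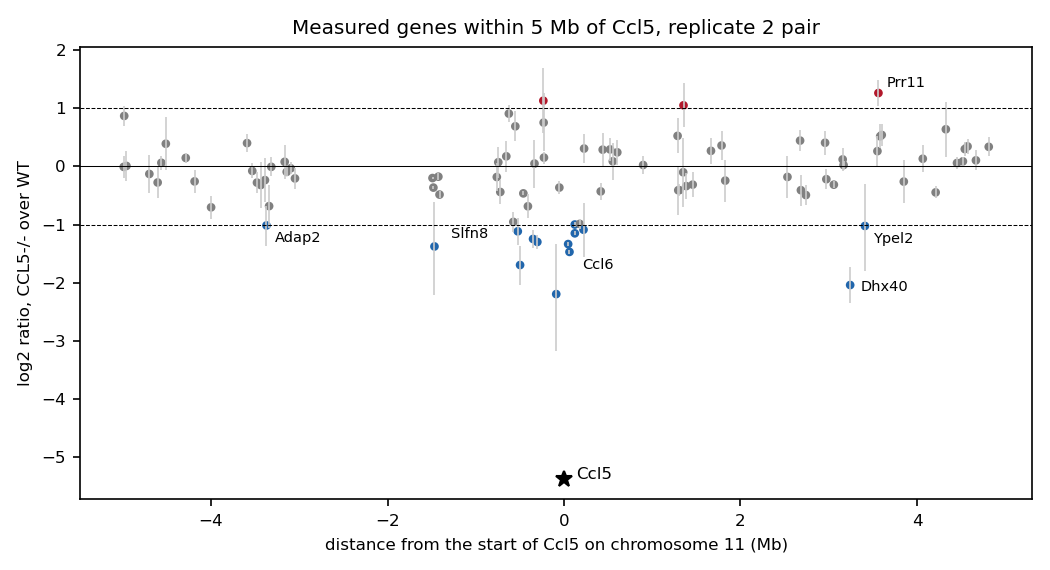
Log2 ratio of CPM, CCL5-/- over WT, of the replicate 2 pair (vertical axis, bars the 95% counting interval) for measured genes within 5 Mb of Ccl5, by distance in Mb from the start of Ccl5 (horizontal axis). Of 94 genes besides Ccl5 (star), 14 are 2-fold lower (blue) and 3 are 2-fold higher (red), and Dhx40, 3.24 Mb away, is at -2.04.

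Over all genes the replicate 2 ratios had little relation to those of the replicate 1 pair, with which they share no library. Across 11296 genes with reads in all 4 libraries, Pearson's r was 0.06 and Spearman's rho 0.04, as a description over genes. Of 398 genes 2-fold lower in replicate 2 with a replicate 1 ratio, 191 were below WT there and 54 were 2-fold lower, with a median of 0.06 against 0.13 for all genes. Of 133 genes 2-fold higher, 82 were above WT there and 23 were 2-fold higher, with a median of 0.23. Of all 11327 measured genes, 4961 lay below WT and 6366 above it in replicate 2. Of the 11296 genes, 1906 lay below WT and 4192 above it in both pairs. Whether the 2-fold genes kept their sign more often than these was not tested. By list, cholesterol synthesis, fatty acid synthesis, amino acid, cell cycle, and glycolysis and hypoxia genes had positive medians in both pairs. Alternative activation, NRF2 and immediate early genes did so by less. Negative in both were neutrophil, monocyte (-0.41 and -0.12), dendritic cell, endothelial, epithelial and pan-leukocyte markers, chemokine receptors and histone genes. The interferon, class II, chemokine ligand, NK and T cell lists, among others, had medians of opposite sign in the pairs. The pairs also differ in their ribosomal RNA share, whose part in these differences was not tested.

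**Figure D5:**
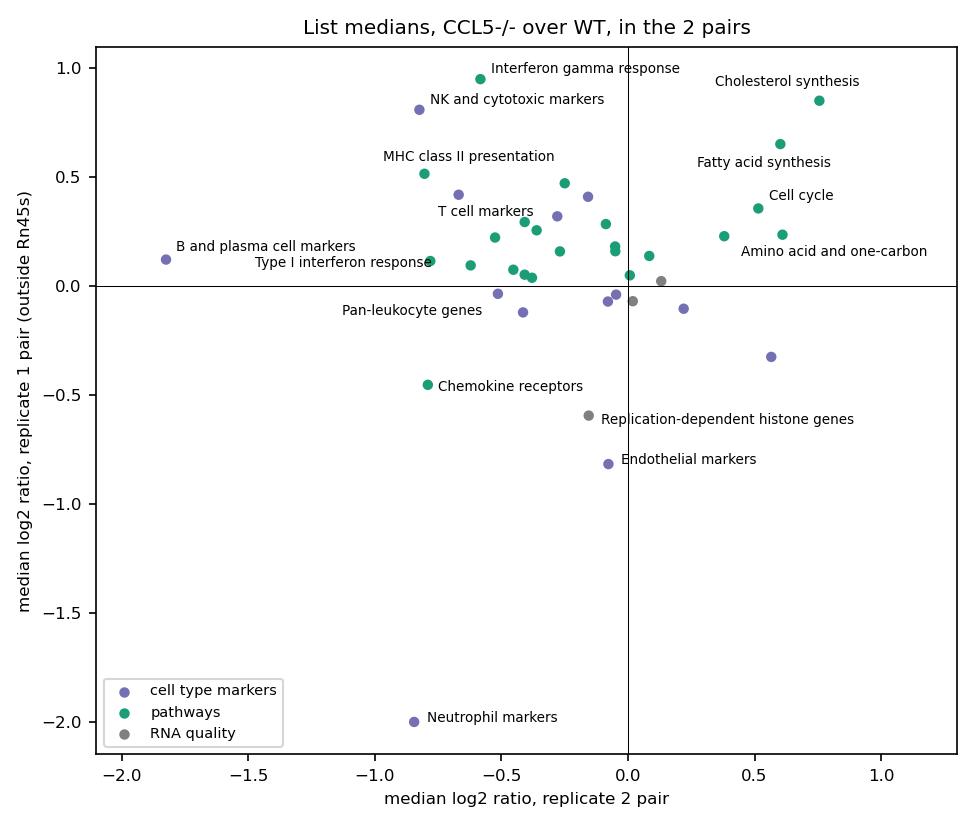
Median log2 ratio of each gene list, CCL5-/- over WT, in the replicate 2 pair (horizontal axis) against the replicate 1 pair on counts outside Rn45s (vertical axis), 1 point per list. Cholesterol synthesis lies high in both pairs (0.76 and 0.85) and neutrophil markers low in both (-0.84 and -2.002), while the interferon gamma list is at -0.58 and 0.95.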

How the data were processed

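RNA of sorted tumour macrophages was sequenced on an Illumina platform, and per the labels it was extracted with Trizol and prepared with a TruSeq kit. The authors deposited whole-number read counts per gene for the 4 F4/80-low libraries. The authors' deposited comparison table holds a normalised signal, from which their size factors were taken for an alternative, as well as a log2 fold change, a score and p-values, which were not used. The authors deposited FPKM for the 2 F4/80-high libraries, used here only for the r over genes that reach 1 FPKM in both. The submitters' processing notes name Cufflinks 2.2.1, TopHat2 2.1.1, STAR, HTSeq, cutadapt, DESeq2, FastQC and bcl2fastq 2.17.1.14. Which of them made the count table, its build and its use of strand are not given in the sources used here, so overlapping, antisense and near-identical genes are uncertain. The labels do not say if replicates are separate mice or pools.

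CPM were computed over all counts of a library, with a minimum of 50 reads in either library, in Python 3.11.15 with scipy 1.17.1, and the calculation was tested on simulated data. No test was run and no p-value is given. Alternatives were TMM factors (edgeR 4.0.16, R 4.3.3), other size factors, other read minimums, an added read and totals without Rn45s. Genes named were Ccl5, its receptors, Itgam and Adgre1, the 15 highest and 15 lowest ratios among genes with 500 or more reads, the 5 highest and 5 lowest with 50 to 499, leaving out clone-named models, pseudogenes and Rn45s, up to 4 members per list by size of ratio with 200 or more reads and up to 3 markers per cell type. Other genes were named after their values were seen. Further items the rule took are not reported here. The gene lists, 38 and 1 added, and the pair itself were chosen with earlier results of these data known. Promoter sequences are RefSeq, GRCm38.p6.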

Additional observations from a re-analysis of the deposited data

How the results depend on the processing

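No paired analysis was possible because the result comes from no test and has 1 library per side. Scaling changed little. TMM factors gave 122 genes 2-fold higher and 433 lower, median-of-ratios factors 114 and 444, the authors' size factors 108 and 449, and totals without Rn45s 139 and 397. The ribosomal protein median moved from 0.02 to -0.00651 with TMM, to -0.015 with median-of-ratios and to -0.025 with the authors' factors, which moved the immediate early median to 0.087. Of 188 named genes, 1 changed sign in any of these, and it was not 2-fold changed. The read minimum mattered more. A minimum of 20 reads gave 208 higher and 665 lower genes, and medians of -1.27 for B and plasma cell, -0.040 for fibroblast (the other sign) and -0.70 for class II genes. A minimum of 200 reads gave 65 and 185, and medians of -2.37 for B and plasma cell, -0.49 for endothelial, 0.71 for epithelial, -0.62 for chemokine receptor, -0.26 for inflammatory, -0.058 for alternative activation and 0.046 for angiogenesis genes. A minimum of 1 read with 1 read added gave 1001 and 1889, and medians of -0.77 for B and plasma cell, -0.12 for eosinophil, basophil and mast cell and -0.040 for fibroblast genes (both of the other sign), -0.61 for class II, -0.59 for chemokine receptor and 0.51 for amino acid genes. More or fewer genes enter under each minimum. Requiring the counting interval to lie past 2-fold left 41 and 134. Ratios of genes with few reads rest on wide intervals, and 592 measured genes had fewer than 50 reads in the other library.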

Other observations

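By chromosome, the median log2 ratio of the replicate 2 pair ran from -0.03 to 0.10 on 18 of the chromosomes. It was 0.15 on chromosome 7 (802 genes, 64.3% above WT) and 0.24 on chromosome 15 (437 genes, 69.8% above WT), where the replicate 1 pair gave 0.06 and 0.10 against 0.13 over all genes. On chromosome 6, 7.04% of 554 genes were 2-fold lower. These values were looked at after the data were seen and no test was made of them.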
